A study of Mus musculus with 78 samples.

Results

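Cytotoxic granule genes were followed in activated mouse CD8+ T cells under nutrient deprivation and under drugs that act on translation. The members were the 7 genes of the count table named Gzma, Gzmb, Gzmc, Prf1, Srgn, Nkg7 and Serpinb9, of 14695 genes in all, and all 7 were tested in every comparison. Primary cells isolated from C57BL/6J mice (spleen and lymph node) had been activated until day 3. The nutrient experiment then kept them for 3 h in medium without arginine (No Arginine), branched-chain amino acids (No BCAA), glucose (No Glucose), glutamine (No Glutamine) or methionine (No Methionine), or in the Control medium. The drug experiment exposed them for 3 h to Halofuginone, an inhibitor of prolyl-tRNA synthetase, to Torin1, an inhibitor of the kinase mTOR, to 4EGI-1, which blocks the binding of eIF4E to eIF4G, or to the solvent DMSO. Each lysate gave total RNA and polysome RNA, which was pooled from dense gradient fractions that carry mRNAs with several ribosomes. Every condition had 3 libraries per fraction, which made 60 libraries. No genetic change is labelled, no drug dose is given in the sources used here, and the labels do not say whether replicates came from separate animals or cultures, so p-values measure the spread between these libraries, which may be technical.

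Killer T cells store their weapons in secretory lysosomes, the cytotoxic granules, and release them at the contact with a target cell. Perforin (Prf1) opens the target's membrane, and granzymes, which are serine proteases, enter and trigger death. Serglycin (Srgn) is the proteoglycan core that holds these cargoes in the granule, Nkg7 is a granule membrane protein needed for efficient release, and Serpinb9 is an inhibitor of granzyme B that shields the killer cell from its own enzyme. Activation switches this programme on over several days, so the cells studied here were already making these mRNAs.

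Total counts per library ran between 15144663 and 30637485 in total RNA and 29917770 and 54272886 in polysome RNA of the nutrient experiment. They ran between 17506526 and 23099949 in total RNA and 17846266 and 24929556 in polysome RNA of the drug experiment. All 9 markers fixed for CD8 T cells were measured, with a summed level between 1874.72 and 5898.66 CPM (counts per 1e6 counts of the library). Of 37 markers of other cell types, 3 were measured: Foxp3 of CD4 T cells reached at most 2.76 CPM, and Cd79a and Cd79b of B cells together lay between 1.66 and 19.1. The other markers, among them those of natural killer cells, which also make granule proteins, had no entry in the count table. Their levels are therefore not known here. In polysome RNA the summed CD8 markers were themselves lower without methionine (1874.72 to 2059.76 CPM), glutamine (1914.97 to 2206.59 CPM), glucose (1963.28 to 2480.35 CPM) and BCAA (2242.82 to 2358 CPM) than in Control (2795.57 to 3317.83 CPM). In total RNA they were lower without glutamine (2089.78 to 2282.07 CPM) and glucose (2096.44 to 2227.45 CPM) than in Control (2372.53 to 2629.43 CPM). The part of these shifts in the changes below was not tested. Fewer cells with a transcript and less of it per cell cannot be told apart in bulk RNA. The nutrient libraries are labelled total RNA and the drug libraries polyA RNA, so the experiments were fitted separately. Levels of different genes are not compared, because no transcript lengths were used.

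The region just before each gene's start is shown for Prf1 and Gzmb, which fell in 4 media in total or polysome RNA, for Gzmc, which fell without glutamine or glucose and rose without arginine, and for Serpinb9, which rose in polysome RNA in all 5 media. Each sequence holds the 250 bases before the start in RefSeq's annotation of GRCm38.p6, read 5′ to 3′ on the gene's strand, with capitals marking matches to any of 6 searched motifs. The motifs, read on both strands, were a RUNX site (TGTGGT), a T-box element spelled GGTGTG, an AP-1 site spelled TGANTCA, a STAT site spelled TTCNNNGAA, an ATF4 site spelled TGATGNAA and a TATA box spelled TATAAA.
Prf1 (chr10:61297586-61297835, plus strand): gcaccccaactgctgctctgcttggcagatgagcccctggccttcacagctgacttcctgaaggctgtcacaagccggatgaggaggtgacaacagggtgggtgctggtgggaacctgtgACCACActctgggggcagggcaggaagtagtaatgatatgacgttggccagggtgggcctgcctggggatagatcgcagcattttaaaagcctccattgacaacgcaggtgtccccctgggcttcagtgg
Gzmb (chr14:56262335-56262584, minus strand): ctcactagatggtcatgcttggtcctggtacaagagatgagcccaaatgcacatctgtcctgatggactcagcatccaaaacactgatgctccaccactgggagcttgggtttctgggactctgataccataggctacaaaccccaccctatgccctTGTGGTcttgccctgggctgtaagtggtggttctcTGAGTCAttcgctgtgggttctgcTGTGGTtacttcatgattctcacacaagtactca
Gzmc (chr14:56234658-56234907, minus strand): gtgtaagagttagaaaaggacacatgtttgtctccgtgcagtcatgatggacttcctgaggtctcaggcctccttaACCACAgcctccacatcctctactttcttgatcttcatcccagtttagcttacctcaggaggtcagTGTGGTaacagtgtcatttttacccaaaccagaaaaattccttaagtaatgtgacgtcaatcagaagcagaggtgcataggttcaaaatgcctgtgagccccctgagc
Serpinb9 (chr13:33004291-33004540, plus strand): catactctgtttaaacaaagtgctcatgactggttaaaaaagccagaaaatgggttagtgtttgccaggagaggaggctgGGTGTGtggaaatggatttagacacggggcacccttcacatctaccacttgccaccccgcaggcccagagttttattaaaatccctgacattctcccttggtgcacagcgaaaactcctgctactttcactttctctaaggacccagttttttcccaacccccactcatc
All 7 members matched an entry there, Srgn with 2 start sites. The RUNX letters stood before 6 of the 7 genes, all but Serpinb9, where a gene counts if any of its start sites matched. Srgn had them at 1 of its 2 start sites. Of the 32851 annotated promoters, with each start site counted apart, 14% held the RUNX letters. Gzmb held them at 93 and 34 bases before the start and Gzmc at 174 and 108, while Prf1 had a single match at 130. The T-box letters stood before Nkg7 and Serpinb9 (16.3% of all promoters). The other matches were the AP-1 letters before Gzmb (6.75%), the STAT letters before Nkg7 (7.02%), the ATF4 letters before Srgn (3.45%) and the TATA letters before Srgn (12.4%). The capitals therefore show 1 match in Prf1, 3 in Gzmb, 2 in Gzmc and 1 in Serpinb9. A match is a description of these letters and not a bound site.

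Before any stress, polysome RNA held more of the effector mRNAs than total RNA did. Polysome and total RNA differed in 65.7% of all genes in Control cells and in 59.3% in DMSO cells. Genes called higher in polysome RNA made up 37.6% and 28.4% of all. Of 7 members, 6 were called higher in polysome RNA in each, with none called lower. The ratio is a log2 difference between libraries scaled by TMM, with its standard error from edgeR's quasi-likelihood fit. In Control it was 0.58 ± 0.14 for Gzma, 0.60 ± 0.10 for Gzmb, 0.54 ± 0.12 for Gzmc, 0.57 ± 0.10 for Prf1 and 0.60 ± 0.09 for Nkg7. Srgn stood lower at 0.31 ± 0.11 (adjusted p = 0.015), and without Control replicate 2 it was 0.24 with adjusted p = 0.13. Its call was also lost under RLE size factors, under DESeq2 and without mitochondrial and ribosomal RNA entries. Serpinb9 was the exception, with 0.07 ± 0.08 in Control (adjusted p = 0.45) and -0.17 ± 0.14 in DMSO (adjusted p = 0.29). In DMSO the other members lay between 0.71 ± 0.17 for Gzmb and 1.42 ± 0.24 for Gzma. The median member stood at 0.57 in Control and 0.91 in DMSO, where the median gene stood at 0.09 and -0.07. When entries that hold mitochondrial and ribosomal RNA reads were left out, the all-gene median in Control shifted by -0.14. Serpinb9 lay below the median gene of the Control comparison.

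**Figure D1:**
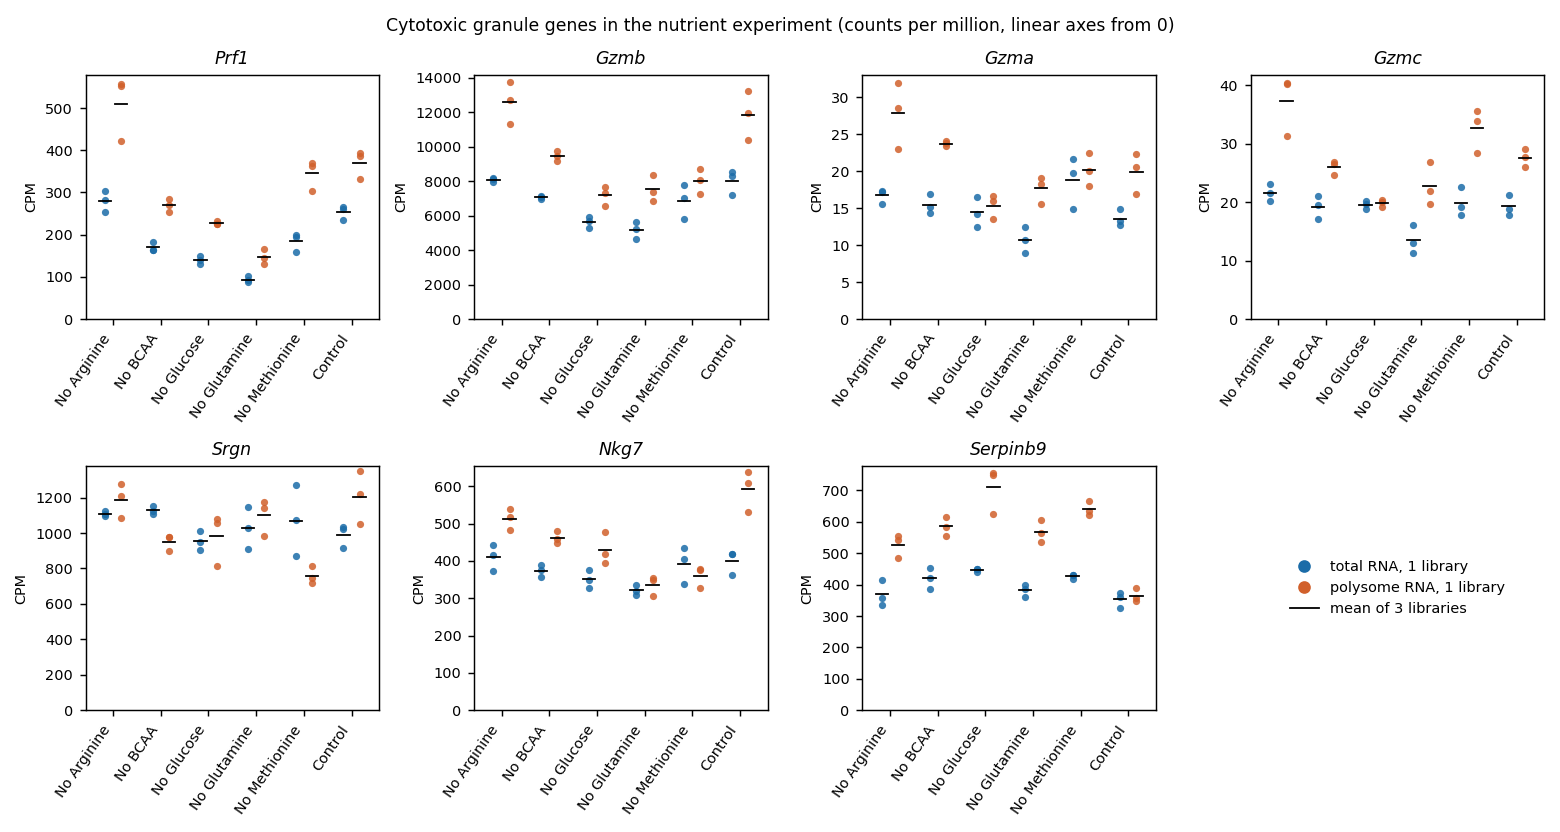
Each point is 1 library of the nutrient experiment, in TMM-scaled CPM (linear axis starting at 0), for total RNA (blue) and polysome RNA (orange), with lines at the means of 3 libraries. Prf1 without glutamine lay at 93.3 CPM in total RNA on average, against 254.5 CPM in Control, while Serpinb9 in polysome RNA lay above Control in all 5 deprivations.

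Counted over the members, the calls differed in number and direction from medium to medium. Calls are Benjamini-Hochberg adjusted p-values under 0.05 over all genes tested. In total RNA, no member was called without arginine, where 9.24% of all genes were. One rose and 1 fell without BCAA (30.1% of genes called), 1 rose and 2 fell without glucose (40.8%), 5 fell and none rose without glutamine (39%), and 2 rose and 1 fell without methionine (35.2%). In polysome RNA, 4 rose and none fell without arginine (40.5%), 1 rose and 4 fell without BCAA (56.1%), and 1 rose and 6 fell without glucose (59%). Another 1 rose and 4 fell without glutamine (64.5%) and 1 rose and 3 fell without methionine (69%). With 56.1% to 69% of all genes called in 4 of these 5 polysome comparisons, the number of members called is near the background, and the sizes and directions below say more. The median member changed by -0.35 in total RNA without glutamine and by 0.43 and -0.46 in polysome RNA without arginine and without glucose, where the median gene lay between -0.02 and -0.01.

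Translational efficiency (TE) compares the polysome to total ratio between a condition and its control, as a log2 difference. The members called were 1 up without arginine (16.5% of genes called), 1 up and 2 down without BCAA (26.9%), 1 up and 3 down without glucose (25.8%), 1 up and 1 down without glutamine (35.2%) and 1 up and 4 down without methionine (49.1%). In all 5 the member that rose was Serpinb9. Each call is relative to scaling, and the median gene's TE lay at -0.12, -0.08, -0.15 and -0.14 without BCAA, glucose, glutamine and methionine. Without the mitochondrial and ribosomal RNA entries those medians moved by 0.14, 0.13, 0.16 and 0.12. None of the called members changed sign when taken relative to the median gene. With each lysate as a block, which pairs its 2 libraries, 3 members were called without arginine. That block called 3025 of all 13072 genes there, where the fit without it called 2162.

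With the drugs few members were called. Halofuginone changed no member in total RNA (0.279% of all genes called), in polysome RNA (0.0491%) or in TE (0%). In TE, 675 of 12745 genes, with Serpinb9 alone among the members, were at an unadjusted p under 0.05, and DESeq2 called no member. Torin1 raised 1 and lowered 1 in total RNA (26.7%), raised 1 and lowered 1 in polysome RNA (16.8%) and changed none in TE (1.79%). 4EGI-1 lowered 2 in total RNA (26.4%) and 1 in polysome RNA (28.6%), raised none in either and changed none in TE (0.565%). Serpinb9 was also the only member at an unadjusted p under 0.05 in TE with Torin1 and with 4EGI-1. Of the 12745 genes, 1640 with Torin1 and 2084 with 4EGI-1 were under that threshold. Having 1 member under it is therefore near the background with these drugs.

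**Figure D2:**
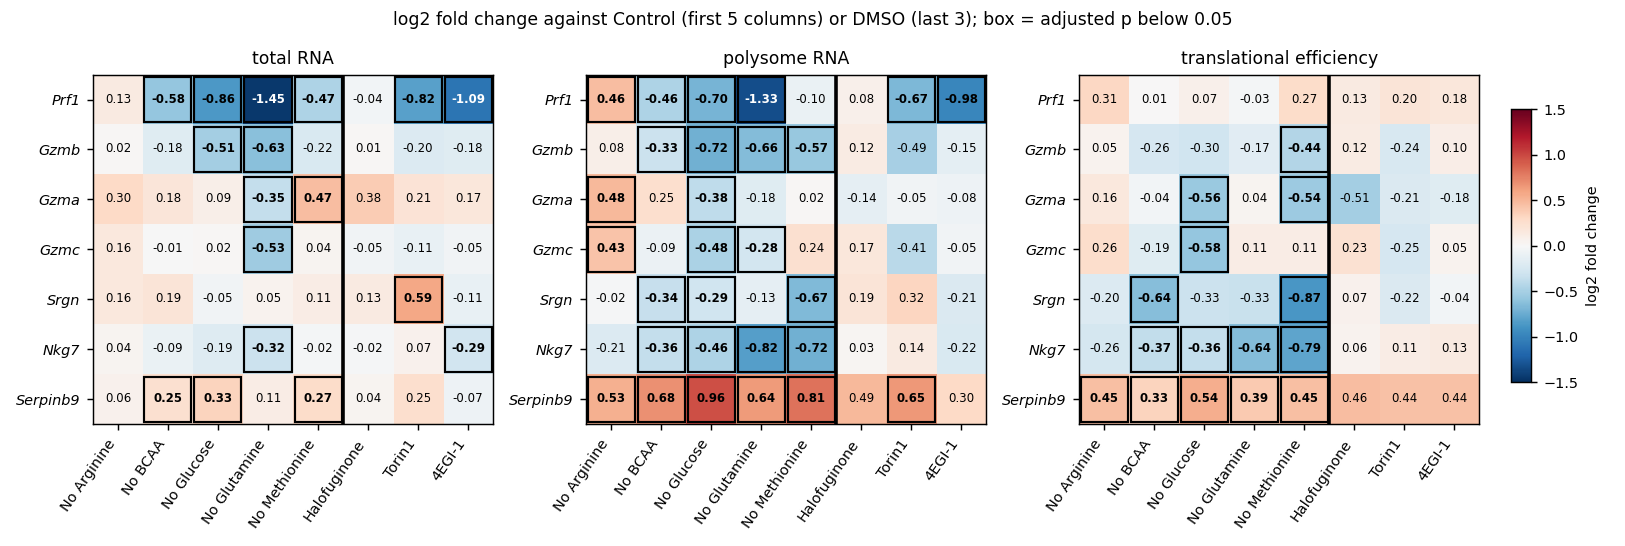
Log2 fold changes of the 7 members (rows) in total RNA, polysome RNA and TE (panels) for the 5 deprivations against Control and the 3 drugs against DMSO (columns), with boxes around adjusted p-values under 0.05. Prf1 is lowered in 4 deprivations and by Torin1 and 4EGI-1 in total RNA with no box in TE, and Serpinb9 has a box in TE in all 5 deprivations.

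Perforin fell in 4 of the 5 deprivations in total RNA, and its fall without glutamine was the largest of any member there. In total RNA, Prf1 stood at 87.0, 101.3 and 91.8 CPM without glutamine, against 235.9, 266.5 and 261.0 CPM in Control. The fall was 2.73-fold (log2 -1.45 ± 0.09, adjusted p = 6.1e-11), with no overlap between the groups. Without glucose the 3 libraries held 130.4, 140.3 and 149.3 CPM (-0.86 ± 0.09, adjusted p = 1.8e-07). Without BCAA they held 163.3, 183.7 and 164.4 CPM (-0.58 ± 0.09, adjusted p = 3.6e-05), and without methionine 159.0, 198.5 and 195.2 CPM (-0.47 ± 0.09, adjusted p = 0.0003). All 12 of these libraries lay below all 3 Control libraries. Without arginine the level was 281.3, 302.6 and 253.5 CPM, which overlapped Control (0.13 ± 0.09, adjusted p = 0.39).

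Ranked by mean, total Prf1 ran glutamine, glucose, BCAA, methionine, Control and arginine, low to high. The libraries of No BCAA and No Methionine overlapped, as did those of Control and No Arginine, and the other neighbours did not. Set directly against each other, No Glutamine lay below No Glucose by 0.59 ± 0.09 in total RNA (adjusted p = 3.9e-05, 32.5% of genes called) and by 0.63 ± 0.11 in polysome RNA (adjusted p = 0.00011, 41% called). No Glucose lay below No BCAA by 0.28 ± 0.09 in total RNA (adjusted p = 0.021, 28.7% called). No Methionine and No BCAA differed by 0.11 ± 0.09 (adjusted p = 0.47), and none of the 7 members differed between those 2 media in total RNA, by edgeR (13.4% of genes called).

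Polysome Prf1 also fell without glutamine, glucose and BCAA, and rose without arginine. Without methionine the polysome libraries held 303.6, 362.7 and 370.4 CPM, against 331.9, 385.7 and 394.4 CPM in Control, a change of -0.10 ± 0.11 (adjusted p = 0.41), although total Prf1 had fallen. No Glutamine (130.5, 165.6 and 145.4 CPM) fell by 1.33 ± 0.11 on the log2 scale (adjusted p = 3.7e-09). No Glucose fell by 0.70 ± 0.11 and No BCAA by 0.46 ± 0.11 (adjusted p = 1.6e-05 and 0.0012). Without arginine polysome Prf1 rose to 556.2, 551.6 and 421.7 CPM, by 0.46 ± 0.11 (adjusted p = 0.0022), and all 3 libraries lay above Control. No Methionine stood 1.23 ± 0.11 above No Glutamine in polysome RNA (adjusted p = 5.2e-08, 45.8% of genes called) and 0.98 ± 0.09 above it in total RNA (adjusted p = 1.4e-07, 25.7% called).

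The TE of Prf1 was not called in any deprivation by edgeR's quasi-likelihood fit without a block. It was 0.31 ± 0.15 without arginine (adjusted p = 0.15) and 0.27 ± 0.15 without methionine (adjusted p = 0.13), and lay between -0.03 and 0.07 in the others. With the lysate as a block these became 0.31 with adjusted p = 0.0064 and 0.28 with adjusted p = 0.0039, both called. DESeq2 also called the change without methionine (0.35, adjusted p = 0.048), as did the fit without mitochondrial and ribosomal RNA entries (0.40, adjusted p = 0.028). By lysate, the log2 polysome to total ratio was 0.98, 0.88 and 0.75 without arginine and 0.86, 0.82 and 0.85 without methionine, against 0.49, 0.58 and 0.63 in Control. Neither deprived group overlapped Control on this measure.

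Torin1 and 4EGI-1 lowered Prf1 as well. Total Prf1 held 105.6, 103.8 and 101.0 CPM with 4EGI-1 and 133.3, 110.3 and 132.3 CPM with Torin1, against 216.3, 207.9 and 238.7 CPM with DMSO. The changes were -1.09 ± 0.09 (adjusted p = 3.6e-07) and -0.82 ± 0.09 (adjusted p = 6e-06), with no overlap between either drug and DMSO. Halofuginone libraries (187.2, 225.6 and 233.5 CPM) overlapped DMSO, at -0.04 ± 0.09 (adjusted p = 0.94). In polysome RNA Prf1 changed by -0.98 ± 0.15 with 4EGI-1 (adjusted p = 0.00021) and by -0.67 ± 0.15 with Torin1 (adjusted p = 0.0049). The log2 ratio of polysome to total RNA averaged 1.07 ± 0.23 with 4EGI-1, 1.10 ± 0.28 with Torin1 and 0.91 ± 0.18 with DMSO (SD, n = 3 each), and its change was called with neither drug.

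**Figure D3:**
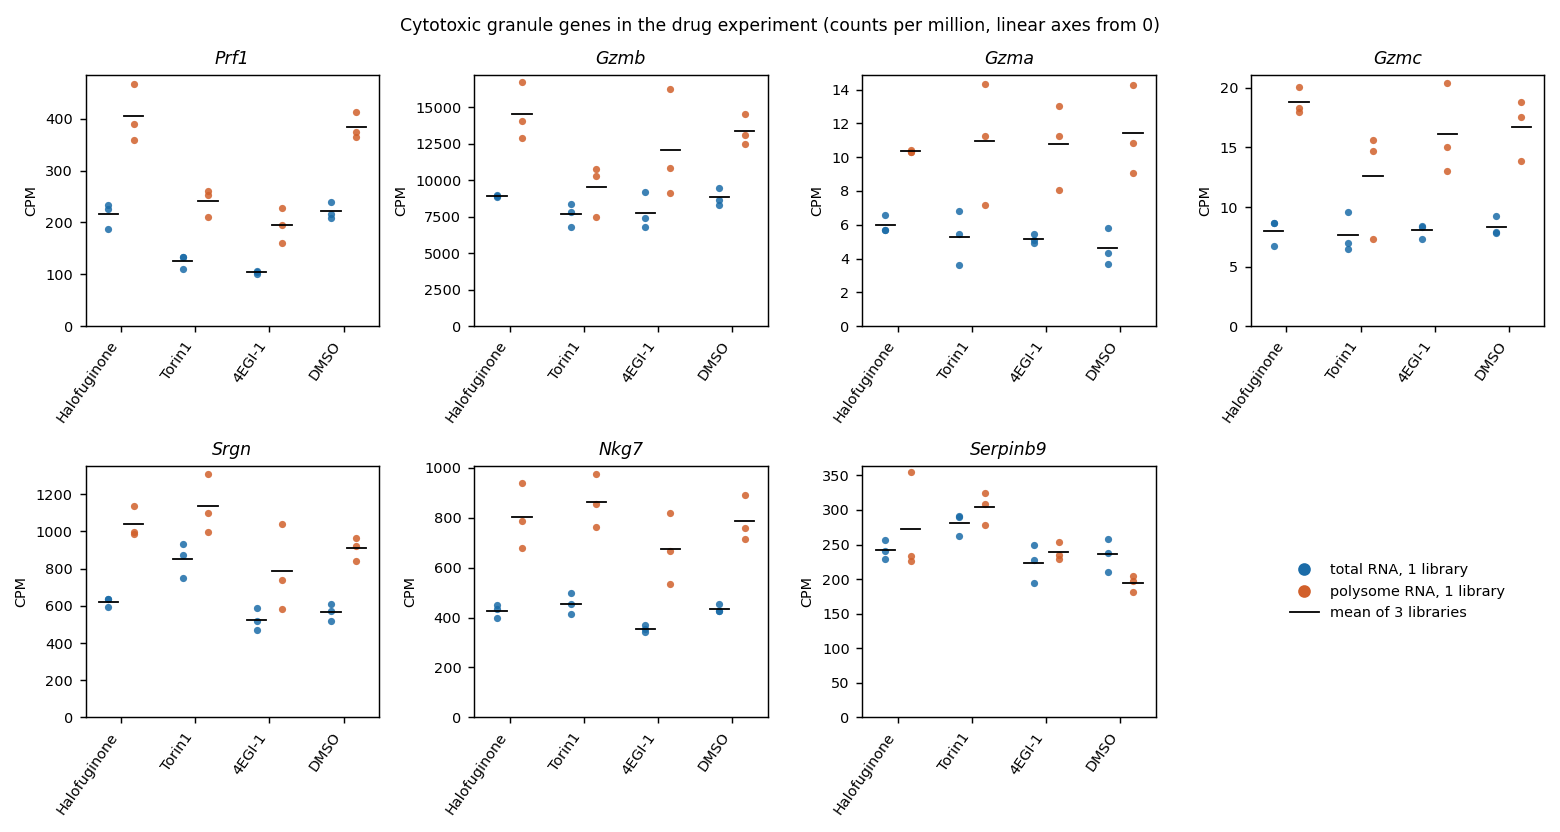
Each point is 1 library of the drug experiment, in CPM on linear axes starting at 0, for total RNA (blue) and polysome RNA (orange), with lines at the means of 3 libraries. Total Prf1 lay at 101.0 to 105.6 CPM with 4EGI-1 and at 110.3 to 133.3 CPM with Torin1, below all DMSO libraries, and total Srgn was above DMSO with Torin1.

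Granzyme B fell in polysome RNA without glucose, glutamine, BCAA or methionine, and in total RNA without glucose or glutamine. In total RNA Gzmb held 4631, 5600 and 5249 CPM without glutamine and 5303, 5664 and 5890 CPM without glucose, against 7195, 8274 and 8520 CPM in Control. The changes were -0.63 ± 0.09 (adjusted p = 9.5e-06) and -0.51 ± 0.09 (adjusted p = 0.00013), and neither group overlapped Control. Without methionine the change was -0.22 ± 0.09 (adjusted p = 0.061), and it was called when Control replicate 1 (-0.29) or No Methionine replicate 2 (-0.32) was left out. Without BCAA it was -0.18 ± 0.09 (adjusted p = 0.15) and without arginine 0.02 ± 0.09 (adjusted p = 0.94). By mean level total Gzmb ran glutamine, glucose, methionine, BCAA, Control and arginine, low to high, and the only neighbours that did not overlap were BCAA and Control.

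Polysome Gzmb held 6568, 7315 and 7647 CPM without glucose and 7263, 8709 and 8039 CPM without methionine, against 10378, 13246 and 11957 CPM in Control. All libraries of the 4 media lay below Control. The changes were -0.72 ± 0.10 without glucose, -0.66 ± 0.10 without glutamine, -0.57 ± 0.10 without methionine and -0.33 ± 0.10 without BCAA (adjusted p = 3.1e-06, 7.5e-06, 3.2e-05 and 0.0073). Without arginine it was 0.08 ± 0.10 (adjusted p = 0.51). TE fell without methionine, by 0.44 ± 0.14 on the log2 scale (adjusted p = 0.011), to a log2 ratio of 0.26, 0.11 and 0.13 by lysate, against 0.52, 0.73 and 0.52 in Control. Without Control replicate 2 this change was -0.36 with adjusted p = 0.059, and without the mitochondrial and ribosomal RNA entries -0.31 with adjusted p = 0.073. The lysate block called 2 further falls in TE, -0.25 without BCAA (adjusted p = 0.015) and -0.30 without glucose (adjusted p = 0.0044). For these falls the fit without the block gave adjusted p = 0.19 and adjusted p = 0.12.

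With the drugs, Gzmb was called in neither fraction. Torin1 libraries held 10323, 10751 and 7473 CPM in polysome RNA, against 13095, 14552 and 12514 CPM with DMSO, which did not overlap (-0.49 ± 0.19, adjusted p = 0.087). With 4EGI-1 the polysome libraries spread between 9142 and 16274 CPM and overlapped DMSO on both sides (-0.15 ± 0.19, adjusted p = 0.61). The highest of them, 4EGI-1 replicate 2, is 1 of the 2 drug polysome libraries whose names carry an R of unstated meaning. Without that replicate, total Gzmb with 4EGI-1 changed by -0.32 (adjusted p = 0.011), against -0.18 ± 0.10 (adjusted p = 0.19) with it.

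Granzyme A, a tryptase, and granzyme C, another serine protease of the family, rose in polysome RNA without arginine and fell there without glucose. The granzyme C gene sits in a cluster of close relatives, and Serpinb9 also has close relatives in the mouse genome, so the way reads shared by such copies were counted leaves both somewhat uncertain. Without glutamine total Gzmc held 11.3, 16.1 and 13.0 CPM, against 17.8, 18.9 and 21.2 CPM in Control, with no overlap (-0.53 ± 0.12, adjusted p = 0.00099). In the other 4 media its total RNA changed by between -0.01 and 0.16 and was not called. Total Gzma rose without methionine, to 14.9, 21.6 and 19.7 CPM, against 13.2, 12.6 and 14.9 CPM in Control (0.47 ± 0.13, adjusted p = 0.008). That rise lost its call without No Methionine replicate 2 (0.35, adjusted p = 0.058). Gzma fell without glutamine by 0.35 ± 0.14 on the log2 scale (adjusted p = 0.045), a call lost without Control replicate 1 (-0.37), Control replicate 3 (-0.28), No Glutamine replicate 1 (-0.24) or No Glutamine replicate 3 (-0.36).

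In polysome RNA without arginine Gzma held 28.6, 31.9 and 23.0 CPM, against 16.8, 22.4 and 20.5 CPM in Control (0.48 ± 0.12, adjusted p = 0.0039). Gzmc held 40.4, 40.2 and 31.3 CPM there, against 26.1, 27.8 and 29.0 CPM in Control (0.43 ± 0.11, adjusted p = 0.0043). In both genes every No Arginine library lay above every Control library. Without glucose Gzmc held 19.2, 20.4 and 19.9 CPM (-0.48 ± 0.11, adjusted p = 0.0013) and Gzma 13.5, 16.6 and 15.9 CPM (-0.38 ± 0.13, adjusted p = 0.014). The Gzma call was lost without No Glucose replicate 1 (-0.29) or Control replicate 2 (-0.30). Polysome Gzmc also fell without glutamine, by 0.28 ± 0.11 (adjusted p = 0.036), a call lost without No Glutamine replicate 1 (-0.18) or replicate 3 (-0.25), or Control replicate 2 (-0.29) or replicate 3 (-0.24). Polysome Gzma without BCAA stood at 0.25 ± 0.12 (adjusted p = 0.089) and was called without Control replicate 2 (0.33). Polysome Gzmc without methionine stood at 0.24 ± 0.11 (adjusted p = 0.063) and was called without No Methionine replicate 1 (0.33).

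Without glucose, Gzmc stood at nearly the same level in polysome and total RNA. Its log2 ratio of polysome to total RNA was -0.06, -0.03 and -0.02 in the 3 lysates without glucose, against 0.54, 0.60 and 0.49 in Control, a change in TE of -0.58 ± 0.17 (adjusted p = 0.0092). Total Gzmc was not called (0.02 ± 0.11, adjusted p = 0.91). Set directly against each other, No Glucose lay below No Arginine in Gzmc TE by 0.84 ± 0.17 (adjusted p = 0.0023, 5.29% of genes called), and No Methionine stood 0.69 ± 0.17 above No Glucose (adjusted p = 0.0022, 29.1% called). Gzma TE fell without glucose (-0.56 ± 0.20, adjusted p = 0.033) and without methionine (-0.54 ± 0.19, adjusted p = 0.019), with ratios of -0.16, 0.35 and -0.09, and between -0.05 and 0.19, against 0.34, 0.87 and 0.50 in Control. The first call was lost without No Glucose replicate 1 (-0.47), No Glucose replicate 3 (-0.48), Control replicate 2 (-0.40) or Control replicate 3 (-0.60), and the second without Control replicate 2 (-0.39) or No Methionine replicate 3 (-0.50). The call without glucose was also lost under RLE size factors and DESeq2 (-0.47 each). With entries of mitochondrial and ribosomal RNA left out, the changes in Gzma TE were -0.43 (adjusted p = 0.11) and -0.42 (adjusted p = 0.072). Neither granzyme was called with any drug against DMSO in total RNA, polysome RNA or TE, with total changes between -0.11 and 0.38 and standard errors up to 0.21.

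The granule's packing and membrane genes, Srgn and Nkg7, fell in polysome RNA in several media in which total RNA was not called. Without methionine total Srgn held 871, 1269 and 1071 CPM, against 917, 1022 and 1031 CPM in Control, and the groups overlapped (0.11 ± 0.10, adjusted p = 0.41, called without No Methionine replicate 1 at 0.22). Polysome Srgn held 717, 815 and 748 CPM in that medium, against 1048, 1347 and 1221 CPM in Control, with no overlap (-0.67 ± 0.11, adjusted p = 1.7e-05). The log2 ratio was -0.35, -0.69 and -0.59, against 0.19, 0.45 and 0.28 in Control, a change in TE of -0.87 ± 0.16 (adjusted p = 3e-05). Without BCAA it was -0.32, -0.30 and -0.37 (TE -0.64 ± 0.16, adjusted p = 0.0032). Total Srgn in that medium held 1125, 1152 and 1105 CPM, above all Control libraries, although the change was not called (0.19 ± 0.10, adjusted p = 0.17). After scaling, both groups had more Srgn in total than in polysome RNA in every lysate, the reverse of Control. The Control side is less firm, as its Srgn enrichment lost its call under RLE size factors, DESeq2 and without mitochondrial and ribosomal RNA entries.

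Polysome Srgn fell without BCAA by 0.34 ± 0.11 on the log2 scale (adjusted p = 0.01) and without glucose by 0.29 ± 0.11 (adjusted p = 0.023). The first call was lost without Control replicate 2 (-0.26), and the second without No Glucose replicate 1 (-0.17), Control replicate 2 (-0.22) or Control replicate 3 (-0.28). The lysate block called the TE of Srgn without glucose (-0.33, adjusted p = 0.013) and without glutamine (-0.32, adjusted p = 0.012). For these 2 media the fit without the block gave adjusted p = 0.13 and adjusted p = 0.11. Compared directly, No Methionine lay below No Glucose in Srgn TE by 0.54 ± 0.16 (adjusted p = 0.01) and in Nkg7 TE by 0.43 ± 0.13 (adjusted p = 0.015).

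Nkg7 TE fell without methionine and without glutamine, and less firmly without BCAA and without glucose. The log2 ratio was -0.12, -0.25 and -0.18 without methionine and -0.14, -0.03 and 0.02 without glutamine, against 0.55, 0.66 and 0.57 in Control. The changes were -0.79 ± 0.13 (adjusted p = 9.2e-06) and -0.64 ± 0.13 (adjusted p = 0.0003). Neither group overlapped Control. Without BCAA and without glucose the changes were -0.37 ± 0.13 and -0.36 ± 0.13 (adjusted p = 0.034 and 0.042). Both calls were lost under RLE size factors (-0.31 and -0.28), under DESeq2 (-0.31 and -0.28) and without mitochondrial and ribosomal RNA entries (-0.24 and -0.23, adjusted p = 0.21 each). The BCAA call was lost under 5 of 6 left-out lysates, No BCAA replicates 1, 2 and 3 (-0.35, -0.38 and -0.38) and Control replicates 2 and 3 (-0.34 and -0.39). The glucose call was lost without No Glucose replicate 1 or 2 (-0.33 and -0.35) or Control replicate 2 or 3 (-0.33 and -0.37). Without arginine the change was -0.26 ± 0.13 (adjusted p = 0.18), called with the lysate block (adjusted p = 0.023).

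Polysome Nkg7 held 305, 354 and 348 CPM without glutamine and 328, 378 and 375 CPM without methionine, against 532, 638 and 608 CPM in Control. These were falls of 0.82 ± 0.09 and 0.72 ± 0.09 on the log2 scale (adjusted p = 1.4e-07 and 5.6e-07), with no overlap. The falls without glucose and BCAA were 0.46 ± 0.09 and 0.36 ± 0.09 (adjusted p = 0.00015 and 0.0018). Without arginine it was -0.21 ± 0.09 (adjusted p = 0.065), and -0.28 and called without Control replicate 1. In total RNA Nkg7 fell without glutamine only, by 0.32 ± 0.09 (adjusted p = 0.0057), although without Control replicate 1 it was also called without glucose (-0.25, against -0.19 ± 0.09 with all libraries).

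In the drug experiment Srgn rose with Torin1 in total RNA. The libraries held 931, 872 and 749 CPM with Torin1, against 518, 609 and 574 CPM with DMSO, with no overlap (0.59 ± 0.09, adjusted p = 0.00018). In polysome RNA the change was 0.32 ± 0.17 (adjusted p = 0.22). 4EGI-1 left total Srgn at 587, 520 and 468 CPM, which overlapped DMSO (-0.11 ± 0.09, adjusted p = 0.42), and polysome Srgn at -0.21 ± 0.17 (adjusted p = 0.38). Without 4EGI-1 replicate 2 that polysome change was -0.46 and called (adjusted p = 0.042). Total Nkg7 fell with 4EGI-1, to 369, 353 and 342 CPM, against 426, 452 and 424 CPM with DMSO (-0.29 ± 0.08, adjusted p = 0.0087), again with no overlap.

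4EGI-1 and Torin1 differed directly in 4 members in total RNA, where 37.3% of all genes differed. 4EGI-1 lay lower in Srgn by 0.70 ± 0.09 (adjusted p = 1.8e-05), in Nkg7 by 0.36 ± 0.08 (adjusted p = 0.0012), in Serpinb9 by 0.33 ± 0.09 (adjusted p = 0.011) and in Prf1 by 0.28 ± 0.09 (adjusted p = 0.027). In polysome RNA 1 member, Srgn, differed (-0.53 ± 0.17, adjusted p = 0.035), where 22% of genes did.

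Serpinb9, the granzyme B inhibitor, was higher in deprived cells. Polysome Serpinb9 rose in all 5 deprivations. The libraries held 757, 749 and 625 CPM without glucose, 623, 666 and 635 CPM without methionine and 616, 556 and 584 CPM without BCAA. They held 563, 606 and 536 CPM without glutamine and 555.7, 540.5 and 483.7 CPM without arginine, against 391, 357 and 347 CPM in Control. All 15 deprived libraries lay above all 3 Control libraries. The rises were 0.96 ± 0.08 without glucose, 0.81 ± 0.08 without methionine, 0.68 ± 0.08 without BCAA, 0.64 ± 0.08 without glutamine and 0.53 ± 0.08 without arginine, with adjusted p-values between 9.6e-09 and 6.2e-05. By mean level the order was Control, arginine, glutamine, BCAA, methionine and glucose, and the neighbours that did not overlap were Control with arginine and BCAA with methionine.

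Total Serpinb9 moved less. It rose without glucose by 0.33 ± 0.08 (adjusted p = 0.0015), without methionine by 0.27 ± 0.08 (adjusted p = 0.0084) and without BCAA by 0.25 ± 0.08 (adjusted p = 0.019). The methionine call was lost without Control replicate 2 (0.22), and the BCAA call without Control replicate 2 or No BCAA replicate 3 (0.19 each). Without glutamine and arginine it changed by 0.11 ± 0.08 and 0.06 ± 0.08 (adjusted p = 0.28 and 0.68). The change in TE was 0.54 ± 0.11 without glucose, 0.45 ± 0.11 without methionine, 0.45 ± 0.11 without arginine, 0.39 ± 0.11 without glutamine and 0.33 ± 0.11 without BCAA, with adjusted p = 0.00033, 0.00069, 0.005, 0.0047 and 0.022. The arginine call was lost without No Arginine replicate 1 (0.40) or 2 (0.37), and the BCAA call without No BCAA replicate 1 (0.31), No BCAA replicate 2 (0.30) or Control replicate 3 (0.28). The log2 ratio of Serpinb9 lay between 0.23 and 0.71 in the deprived lysates, against 0.06, 0.18 and -0.03 in Control, with no overlap.

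Torin1 raised polysome Serpinb9 to 308, 325 and 278 CPM, against 205, 181 and 197 CPM with DMSO (0.65 ± 0.15, adjusted p = 0.0082), with no overlap. In total RNA the Torin1 change was 0.25 ± 0.09 (adjusted p = 0.054), and 0.32 and called without DMSO replicate 1. Halofuginone (226, 355 and 234 CPM) and 4EGI-1 (235.2, 229.5 and 254.2 CPM) libraries also all lay above DMSO in polysome RNA, at 0.49 ± 0.15 and 0.30 ± 0.15, but neither was called (adjusted p = 0.27 and 0.15). In TE, Halofuginone stood at 0.46 ± 0.19, Torin1 at 0.44 ± 0.19 and 4EGI-1 at 0.44 ± 0.19 (adjusted p = 0.87, 0.32 and 0.25).

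**Figure D4:**
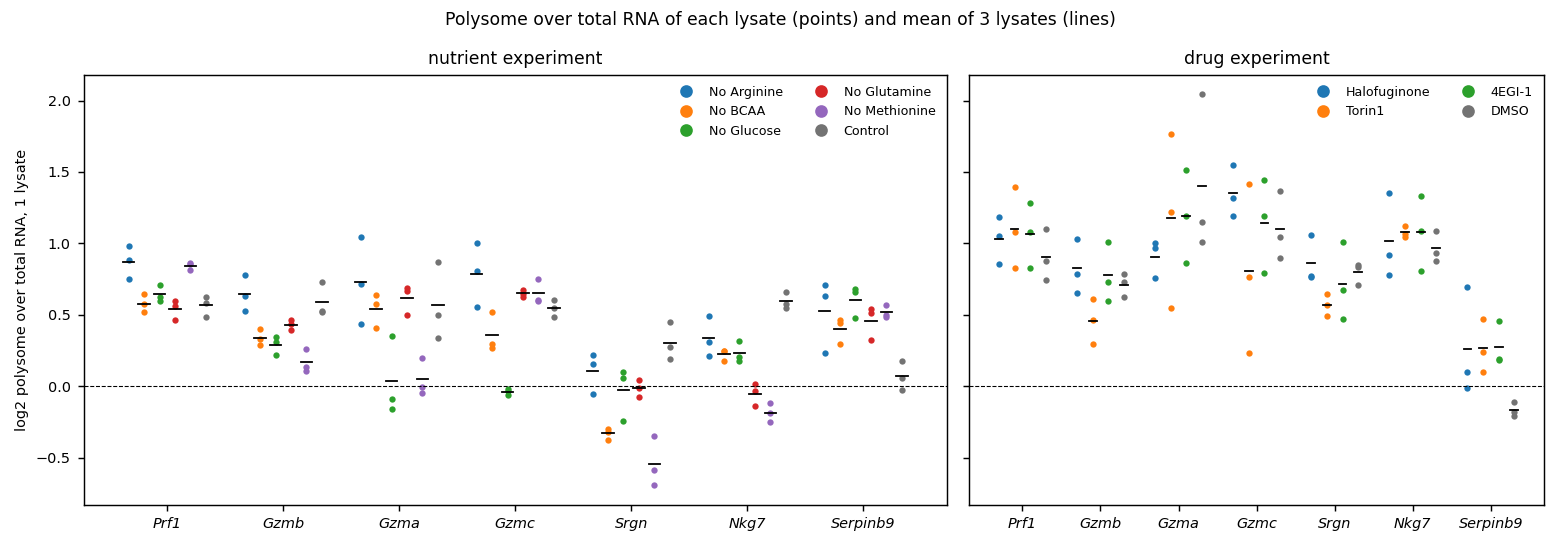
Log2 ratio of polysome to total RNA for each lysate (points) and the mean of 3 lysates (lines), by member and condition, with the dashed line at equal level after scaling. Control points lie between 0.19 and 0.87 for the 6 effector and packing genes, the Srgn points without methionine between -0.69 and -0.35, and the Serpinb9 points of the deprived lysates between 0.23 and 0.71.

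No Glucose and No Arginine were also set against each other. All 7 members differed between these media in polysome RNA, where 45.6% of all genes did. This pair is the one with the most members called. The other polysome contrasts between deprivations left 1 to 4 members uncalled. Glucose withdrawal lay lower in Prf1 by 1.16 ± 0.11, in Gzmc by 0.91 ± 0.11, in Gzma by 0.86 ± 0.12, in Gzmb by 0.81 ± 0.10, in Srgn by 0.27 ± 0.11 and in Nkg7 by 0.26 ± 0.09, and higher in Serpinb9 by 0.43 ± 0.08. The adjusted p-values ran between 1.3e-07 for Prf1 and 0.043 for Srgn.

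Other genes of the killing pathway were counted from lists. Of 9 other granzymes and death ligands, 3 were measured. Tnfsf10, the death ligand TRAIL, fell in total RNA in 4 deprivations, by 0.72 ± 0.07 without glutamine, 0.66 ± 0.07 without glucose, 0.45 ± 0.07 without BCAA and 0.45 ± 0.07 without methionine. Fasl, the ligand of the death receptor Fas, rose without glutamine by 0.44 ± 0.09 in total and 0.86 ± 0.09 in polysome RNA, and fell without glucose by 0.29 ± 0.09 in total RNA. With the drugs Fasl rose with Torin1 (0.58 ± 0.11) and fell with 4EGI-1 (-1.14 ± 0.12) in total RNA. Gzmm, granzyme M, rose without glutamine (1.72 ± 0.26), BCAA (1.25 ± 0.27) and methionine (1.02 ± 0.28) and fell without glucose (adjusted p = 0.028) in total RNA, at low levels of 3.04 ± 0.38, 2.18 ± 0.39, 1.88 ± 0.61 and 0.46 ± 0.14 CPM, against 0.91 ± 0.11 CPM in Control (SD, n = 3 each). With 4EGI-1 Gzmm rose to 7.04 ± 1.18 CPM, against 1.15 ± 0.50 CPM with DMSO (2.62 ± 0.26, adjusted p = 1.9e-06).

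Genes that mature and sort granule cargo included both rises and falls in polysome RNA. Of 18 measured of a list of 20, 7 rose and 2 fell without arginine, 5 rose and 5 fell without BCAA, 5 rose and 7 fell without glucose, 5 rose and 7 fell without glutamine and 6 rose and 6 fell without methionine. Of all genes, 40.5%, 56.1%, 59%, 64.5% and 69% were called in these comparisons, so the list's number of calls is near the background. Ctsw, a protease of cytotoxic cells, rose in all 5, by between 0.31 ± 0.12 without glutamine and 0.78 ± 0.12 without methionine. Ctsc, cathepsin C, which activates granzymes, rose by 0.57 ± 0.10 without arginine and 0.50 ± 0.10 without glutamine. Lamp1, a granule membrane protein, fell by between 0.31 ± 0.10 without arginine and 0.87 ± 0.10 without glutamine, and Cst7, cystatin F, an inhibitor of cathepsin C, fell by 0.75 ± 0.11 without methionine and 0.58 ± 0.10 without glutamine. The median of the list lay between -0.06 and 0.14 in these 5 comparisons, and the median gene between -0.03 and -0.01. In total RNA the list had 1 rise without arginine, 3 falls without BCAA, 3 rises and 3 falls without glucose, 6 falls without glutamine, and 1 rise and 4 falls without methionine. Of all genes, 9.24%, 30.1%, 40.8%, 39% and 35.2% were called there, and the called share of the list lay below that in each medium. Sort1, a sorting receptor, was among the falls without BCAA, glutamine and methionine (-0.46 ± 0.10, -0.62 ± 0.11 and -0.58 ± 0.11).

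The machinery that carries and fuses granules also held genes that rose and genes that fell. Of 19 measured in polysome RNA of a list of 22, 6 rose and 10 fell without arginine, 7 and 7 without BCAA, 6 and 5 without glucose, 6 and 9 without glutamine and 8 and 10 without methionine, where 40.5%, 56.1%, 59%, 64.5% and 69% of all genes were called. Rab11a, a small GTPase of recycling endosomes, fell in polysome RNA by between 0.45 ± 0.08 without BCAA and 1.18 ± 0.08 without methionine. Ap3b1 and Ap3d1, subunits of the AP-3 complex that sorts cargo to lysosome-related organelles, rose without methionine by 0.86 ± 0.09 and 0.86 ± 0.08. In TE without methionine, where 49.1% of all genes were called, 9 of the list fell and 6 rose, with Rab11a at -1.19 ± 0.11, the vesicle fusion proteins Vamp4 at -1.10 ± 0.13 and Vamp8 at -0.98 ± 0.13, and Ap3b1 at 0.72 ± 0.12. Its median there was -0.27, against -0.14 for the median gene. Torin1 raised Lyst, which controls the size of lysosome-related organelles, by 1.15 ± 0.15 in polysome RNA and 0.75 ± 0.17 in TE.

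Among 15 transcription regulators of effector T cells, Tbx21, which encodes T-bet, rose in the 4 deprivations in which Prf1 fell in total RNA, and fell with Torin1 and 4EGI-1, as Prf1 did. In total RNA Tbx21 rose in all 5 deprivations, by 1.25 ± 0.07 without glutamine, 1.08 ± 0.07 without methionine, 0.81 ± 0.07 without BCAA, 0.52 ± 0.07 without glucose and 0.23 ± 0.07 without arginine. Its mean was 270.5 ± 15.5 CPM without glutamine, against 113.7 ± 5.61 CPM in Control (SD, n = 3 each). With 4EGI-1 and Torin1 Tbx21 fell by 1.17 ± 0.11 and 0.82 ± 0.11, to 41.1 ± 5.21 and 52.2 ± 6.81 CPM, against 92.4 ± 7.10 CPM with DMSO. Eomes, its T-box relative, fell with 4EGI-1 by 1.28 ± 0.18 in total RNA and averaged between 0.311 and 0.785 CPM in the total RNA of the nutrient groups. Id2, an inhibitor of helix-loop-helix factors, fell without glutamine by 0.88 ± 0.10 in total and 1.51 ± 0.09 in polysome RNA, and Irf4 fell without glucose by 1.03 ± 0.09 in total RNA. By count, 2 regulators rose and 6 fell in total RNA without glutamine, 4 rose and 4 fell without glucose, 5 rose and 1 fell without BCAA, 5 rose and 2 fell without methionine and 2 rose and none fell without arginine. The shares of all genes called there were 39%, 40.8%, 30.1%, 35.2% and 9.24%. With 4EGI-1, 2 rose and 5 fell (26.4% of all genes called), and with Torin1 4 rose and 2 fell (26.7%).

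**Figure D5:**
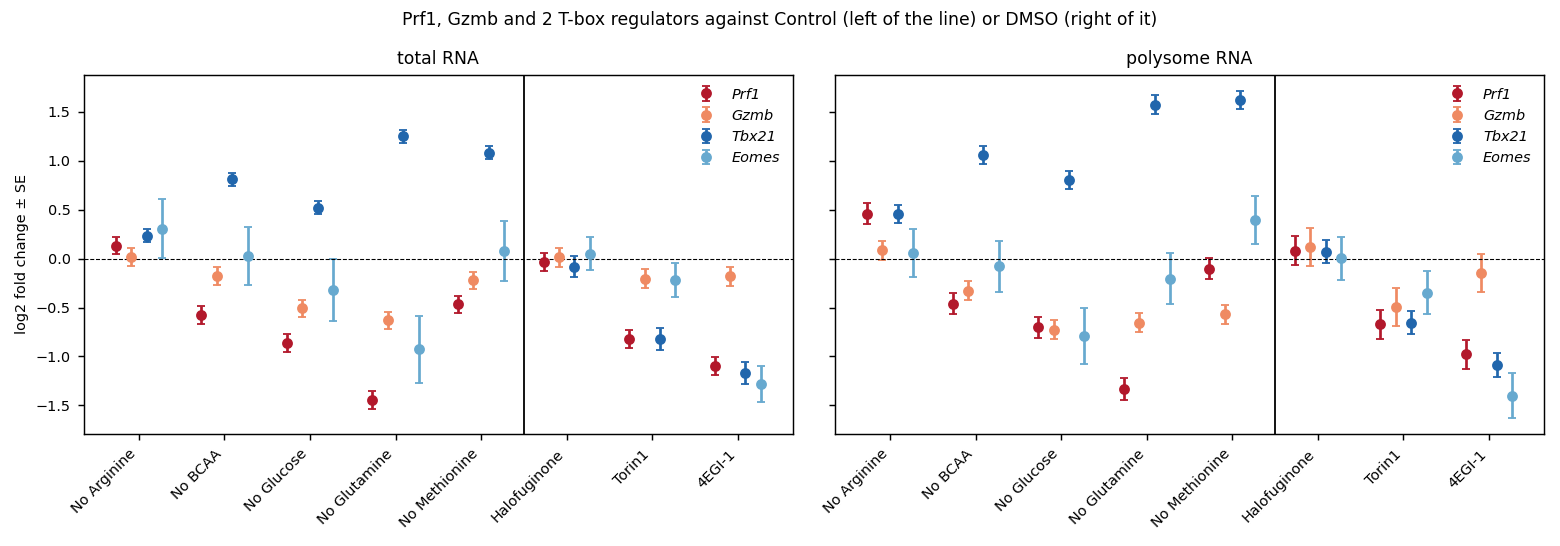
Log2 fold changes with standard errors of Prf1, Gzmb, Tbx21 and Eomes in total RNA (left) and polysome RNA (right) for 5 deprivations against Control and 3 drugs against DMSO. Tbx21 lies above 0 in all 5 deprivations, at 1.25 in total RNA without glutamine where Prf1 is at -1.45, and both lie below 0 with Torin1 and 4EGI-1.

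Across the 60 libraries, with each gene's log2 CPM centred within experiment and fraction, the members were alike to different degrees. Gzmb ran closest to Prf1 (r = 0.77) and Gzmc (r = 0.74), Gzma to Gzmc (r = 0.73) and Srgn to Nkg7 (r = 0.68), and Serpinb9 ran against Gzmb (r = -0.48). The genes most like each member, of 11611 compared, were Tubb4b and Lfng for Prf1 (r = 0.86 and 0.84), Atp1b3 and Agpat5 for Gzmb (0.92 and 0.88), and Gzmc and H13 for Gzma (0.73 and 0.64). They were Entpd6 and H13 for Gzmc (0.76 and 0.75), Cd247 and Tmed5 for Srgn (0.84 and 0.83), Ndfip1 and Tnfrsf4 for Nkg7 (0.91 and 0.89), and Hp1bp3 and Scfd1 for Serpinb9 (0.87 and 0.86). These correlations describe libraries that share conditions, lysates and scaling.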

How the data were processed

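The deposited values were raw read counts per Ensembl gene (14695 genes, 14246 with a symbol). Per the submitters' processing notes the authors used FastQC, MultiQC, Trimmomatic, STAR, HTSeq and edgeR with GRCm39. How reads of overlapping genes or strands were counted is not given in the sources used here. The table covers 60 of 78 labelled libraries, and the other 18, from monosomes, were not analysed here. In R 4.3.3, counts were kept by filterByExpr (minimum 10), scaled by TMM and tested with edgeR 4.0.16's quasi-likelihood test, adjusted by Benjamini-Hochberg within each comparison over all genes tested (12642 and 12417 genes in nutrient total and polysome RNA, 12535 and 12223 in drug RNA). TE was the interaction over both fractions (13072 and 12745 genes). TMM scaling hides any change that all genes share. The fits were run on simulated counts, drawn independently for each library with the fitted spread. That run cannot show how the fits behave when libraries share a lysate. Members and lists were chosen with earlier results of these data known. All 7 members are named in each comparison, and from lists up to 3 called genes per direction, by size. Levels of members are TMM-scaled CPM, and marker sums use library totals. Gene likeness used log2 CPM with a prior count of 2. The labels' protocol takes both fractions from the same lysate (residual correlation -0.0315 to 0.308), and the lysate block is an alternative. Same replicate numbers within a fraction (-0.201 to 0.343) were not taken to pair libraries. Alternatives were DESeq2 1.42.0, RLE size factors, no filter, omitting mitochondrial and ribosomal RNA entries, and leaving out each lysate.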

Additional observations from a re-analysis of the deposited data

Results flagged for a closer look

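In 4 cases a member's change differed between total and polysome RNA by the interaction test, with fold changes of opposite sign in the 2 fractions. The share of all genes that met this rule was not counted. The interaction was called in 49.1% of all genes without methionine, 26.9% without BCAA and 25.8% without glucose. Srgn without methionine had a TE change of -0.87, from 0.11 in total and -0.67 in polysome RNA. Srgn without BCAA had -0.64, from 0.19 in total and -0.34 in polysome RNA. Gzmc without glucose had -0.58, from 0.02 and -0.48, and Gzma without glucose had -0.56, from 0.09 and -0.38. The Gzma case is the least firm. Its TE call was lost under RLE size factors, DESeq2 and without mitochondrial and ribosomal RNA entries, and on leaving out any of several single lysates. In none of the 4 was the total RNA change called, so its sign is not settled, least of all in the 2 glucose cases. All 3 libraries of total Srgn without BCAA nevertheless lay above all Control libraries. Groups of 3 libraries were too small to look for single outlying libraries.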

How the results depend on the processing

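Of 2506 member values recomputed under 35 settings, 2392 stayed on their side of the threshold with no called value reversed, 55 gained a call, 59 lost one. Among the 2392, 104 values that were not called changed sign. Counts of members called moved by over 1.5 times in these cases. In TE, No Glucose gave 2, where the fit gave 4, under RLE size factors, under DESeq2 and without mitochondrial and ribosomal RNA entries, the calls lost being Gzma and Nkg7. No Arginine gave 3, where the fit gave 1, with the lysate as the replicate block. Over all genes that block called 3025 there, where the fit called 2162. Leaving out 1 lysate gave 0 to 1 calls (No Arginine TE), 1 to 2 (No BCAA total RNA), 1 to 3 (No BCAA TE), 2 to 4 (No Glucose TE), 3 to 5 (No Methionine TE) and 1 to 2 (4EGI-1 polysome RNA). Nkg7 TE without BCAA lost its call under RLE (-0.31, adjusted p = 0.086), DESeq2 (adjusted p = 0.071) and without ribosomal RNA entries (-0.24, adjusted p = 0.21), and Srgn polysome enrichment in Control did so under the same 3 (0.23, 0.23 and 0.17). Within a fraction, where shared numbers were not taken to pair libraries, the replicate block called 7 further member changes: total Nkg7 without glucose (-0.19), total Gzmb without methionine (-0.23), total Serpinb9 with Torin1 (0.25), and in polysome RNA Nkg7 without arginine (-0.20), Gzma without BCAA (0.26), Gzmc without methionine (0.23) and Gzmb with Torin1 (-0.51). Over all genes the block also called more in each of these comparisons. In total RNA it called 5511 without glucose, 4747 without methionine and 4097 with Torin1, where the fit called 5159, 4448 and 3343. In polysome RNA it called 5683 without arginine, 7370 without BCAA, 8836 without methionine and 2471 with Torin1. The fit called 5034, 6960, 8566 and 2051 there. The block ended the Prf1 difference of 4EGI-1 from Torin1 (-0.21, adjusted p = 0.071). DESeq2 called Prf1 TE without methionine (0.35), as did omitting ribosomal RNA entries (0.40). RLE ended the Gzma TE difference of No Glucose from No Arginine (-0.64, adjusted p = 0.053). Over all genes, DESeq2 called 375 in 4EGI-1 TE, 393 in Torin1 TE, and 60 and 85 in Halofuginone polysome and total RNA, where the fit called 72, 228, 6 and 35. The block called 630 in 4EGI-1 TE and 1182 in No Glucose against No Arginine TE, where the fit called 691. Leaving out 1 lysate or library gave 8 to 117 genes in 4EGI-1 TE, 74 to 242 in Torin1 TE, 1180 to 1740 in Torin1 polysome RNA (fit 2051), 3 to 4 and 11 to 35 in Halofuginone polysome and total RNA, 617 to 1243 in No Arginine total RNA (fit 1168), 526 to 2903 in No Arginine TE (fit 2162) and 2168 to 3260 in No Glucose TE (fit 3370).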
